A study of Mus musculus with 2 samples.

Results

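Ribosomal protein genes, a set of housekeeping genes needed in every dividing cell, were examined for chromatin loops in keratinocytes of the hair matrix, the zone of cell division in the hair bulb. The set was chosen by name: protein-coding genes whose symbol is Rpl or Rps followed by a number, by a number and a letter, by p0 to p2, or by a, without the Rps6k kinases and without pseudogenes. It held 81 of the 21887 protein-coding genes on chromosomes 1 to 19, X and Y in RefSeq GRCm38.p6. Of these, 43 encode proteins of the large subunit, 30 of the small subunit and 3 of the stalk, and 5 are paralogues whose symbol ends in l. The rule uses symbols and no contact values. Read strictly it leaves out 8 similar symbols, Rps3a1 among them, of which 1, Rps23rg1, was at a loop.

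Contacts came from Hi-C, in which DNA fragments held near each other by fixation are joined and read as pairs. There were 2 libraries, both from sorted primary hair matrix keratinocytes at postnatal day 4.5. One came from wild-type mice (WT) and the other from mice with the genotype Tet2/Tet3 DKO, Krt14-Cre (DKO), in which a Cre recombinase driven by the promoter of the basal keratin gene Krt14 acts in Krt14-expressing epithelium and its descendants. Both had the same fixation, the Arima enzymes and read pairs of 150 bp. How many mice were pooled is not given in the sources used here. With 1 library per genotype no difference has a replicate check and none was tested, so values set side by side describe 2 libraries and not the genotypes. Intervals below are exact 95% intervals and cover counting error only.

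A ribosome joins a small subunit, which reads the messenger RNA, to a large subunit, which forms the peptide bond. Nearly every ribosomal protein is encoded by a single active gene among many processed pseudogenes. These genes are short and strongly transcribed, and many start transcription inside a run of pyrimidines that couples their translation to growth signals. In mouse skin, dominant mutations of Rps19 and Rps20 darken the skin, and mutations of Rpl24, Rpl27a and Rpl38 alter pigmentation or the tail. Contacts do not measure transcripts, so none of the values below is an expression level.

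The deposited lists give enriched pixels, each a pair of 5 kb bins, with the number of contacts observed and the number expected from the surrounding bins. The WT list held 5811 pixels and the DKO list 4872, which were joined into 2902 and 2641 loops. At the 1940 pixels in both lists the median ratio of DKO to WT expected counts was 0.973. This is not a sequencing depth, which is not given in the sources used here. Markers of the sorted cells were placed in the same way: 5 of 9 hair matrix and keratinocyte markers were at loops in both lists, among them Krt28, Msx2 and Shh, and none of 5 melanocyte markers in either. Of all protein-coding genes 9.44% were in both and 22.8% in either, so 0 of 5 is not far from the background. WT and DKO loops were at 3 and 2 of 5 markers of dermal papilla and fibroblasts, and at 3 and 1 of 4 immune and endothelial markers. A loop at a marker does not show which cells were present, and what part other cells have in the values below was not tested.

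Promoter sequence was available for 61 of the 81 genes, in 73 promoters of RefSeq (GRCm38.p6) that run from 250 bases before the start base to 50 bases from it on. Those of Rpl19, Rpl26 and Rpl35 are shown as 3 examples from the genes with a loop in both lists whose promoter holds an ETS core. Their start base lay inside the bin of a called contact, in both lists for Rpl19 and Rpl26 and in WT for Rpl35. Start bases of Rpl13a and Rplp0, without an ETS core, also lay in such a bin in WT, and that of Rps21, with one, in DKO. Rpl19 has a further promoter without an ETS core. The start base of its promoter shown is not the annotated gene start used to place loops. That gene start lay outside the bin of the highest Rpl19 pixel, by 2998 bp in WT and 7998 bp in DKO. Each stretch holds 90 bases before the start base and 10 from it on, on the strand of the gene, and capitals mark the ETS core CCGGAA or its reverse complement. The stretches are chr11:98026620-98026719 (plus strand), chr11:68901476-68901575 (plus strand) and chr2:39005122-39005221 (minus strand).
Rpl19: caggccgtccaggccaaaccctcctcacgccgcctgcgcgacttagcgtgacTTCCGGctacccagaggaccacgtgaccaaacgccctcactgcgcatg
Rpl26: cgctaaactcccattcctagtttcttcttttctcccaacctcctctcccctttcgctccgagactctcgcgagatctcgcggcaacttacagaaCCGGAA
Rpl35: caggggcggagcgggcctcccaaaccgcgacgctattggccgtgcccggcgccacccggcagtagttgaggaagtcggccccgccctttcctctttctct

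The start of Rpl35 lay in a pyrimidine run, and its ETS core lay outside the stretch printed. Counted over whole promoters and both strands, the ETS core was in 34 of 73 promoters of ribosomal protein genes (46.6%), against 18.7% of 21263 promoters of all protein-coding genes. A stretch of 5 pyrimidines that began within 3 bases of the start base, alone or inside a longer run, was in 38.4% of them against 15.8%. The YY1 core AAGATGGC was in 9.59% against 3.05%, the TATA box TATAAA in 9.59% against 12.6%, and a core of the CTCF motif in 4.11% against 2.34%. A match is a run of letters, not a bound site.

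A gene was counted at a loop where at least 1 pixel of the loop had an anchor bin no farther than 5 kb from either annotated gene end. Ribosomal protein genes were at loops as often in DKO as in WT, and in each list the lower bound of their share was above the share of all protein-coding genes. In WT 22 of the 81 genes were at a loop, 27.2% (17.9 to 38.2), beside 16.3% of all protein-coding genes. In DKO the count was also 22, 27.2% (17.9 to 38.2), beside 15.9%. In both lists there were 13, 16.0% (8.83 to 25.9), beside 9.44%, and in at least 1 list 31, 38.3% (27.7 to 49.7), beside 22.8%. The genes in both lists were thus 41.9% of those in either, and 41.4% over all protein-coding genes. The other 9 genes in WT and 9 in DKO were at loops of that list alone.

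These genes are short and lie close to other genes. Their median length was 3175 bp against 17169 bp over all protein-coding genes, 80 of 81 were no longer than 10 kb, and 70 of 81 (86.4%) had an end within 10 kb of an end of another gene, against 59.8% of all. Of the genes up to 10 kb long 13% were at WT loops and 12.7% at DKO loops. Of those near another gene end, the shares were 19.7% and 19.8%, which lie inside the intervals of the ribosomal protein genes, and of those with both properties 17.4% and 17.6%, just below the lower bound. How far gene spacing accounts for the higher share was not tested. At a false discovery rate (FDR) under 0.01 in all 4 neighbourhoods, 10 of the 81 genes were left in WT, 12.3% (6.08 to 21.5) beside 8.07% of all genes, and 9 in DKO, 11.1% (5.21 to 20.0) beside 7.30%. Both backgrounds then lie inside the interval. The same held in both lists with at least 20 contacts per pixel or without weak single-pixel loops, in WT with the wider symbol rule (lower bound 16.2 beside 16.3%), and in DKO with the highest pixel of each loop alone (lower bound 13.7 beside 14.1%).

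Both subunits were represented. Of the 43 large-subunit genes 12 were at WT loops (27.9%), 13 at DKO loops (30.2%) and 8 at both, and of the 30 small-subunit genes 9 (30.0%), 7 (23.3%) and 4. Of the stalk genes Rplp0 was at loops in both lists, Rplp2 in DKO alone and Rplp1 in neither. None of the 5 paralogues (Rpl3l, Rpl10l, Rpl32l, Rpl39l and Rps27l) and none of the 4 members on chromosome X (Rpl10, Rpl36a, Rpl39 and Rps4x) was at a loop. The exact intervals reach 52.2% for the paralogues and 60.2% for chromosome X, above the 22.8% of all protein-coding genes in either list. Of those 4990 genes 4963 were on autosomes, so few genes of chromosomes X and Y were at loops. Neither group is set apart by its count. No loop was called at Rps6, the small-subunit protein phosphorylated on growth signals, or at Rpsa, whose product is also known as the laminin receptor. The nearest anchor bin lay 27766 bp from Rpsa in both lists. In all 50 members had no loop in either list, 26 of the large and 18 of the small subunit among them.

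**Figure D1:**
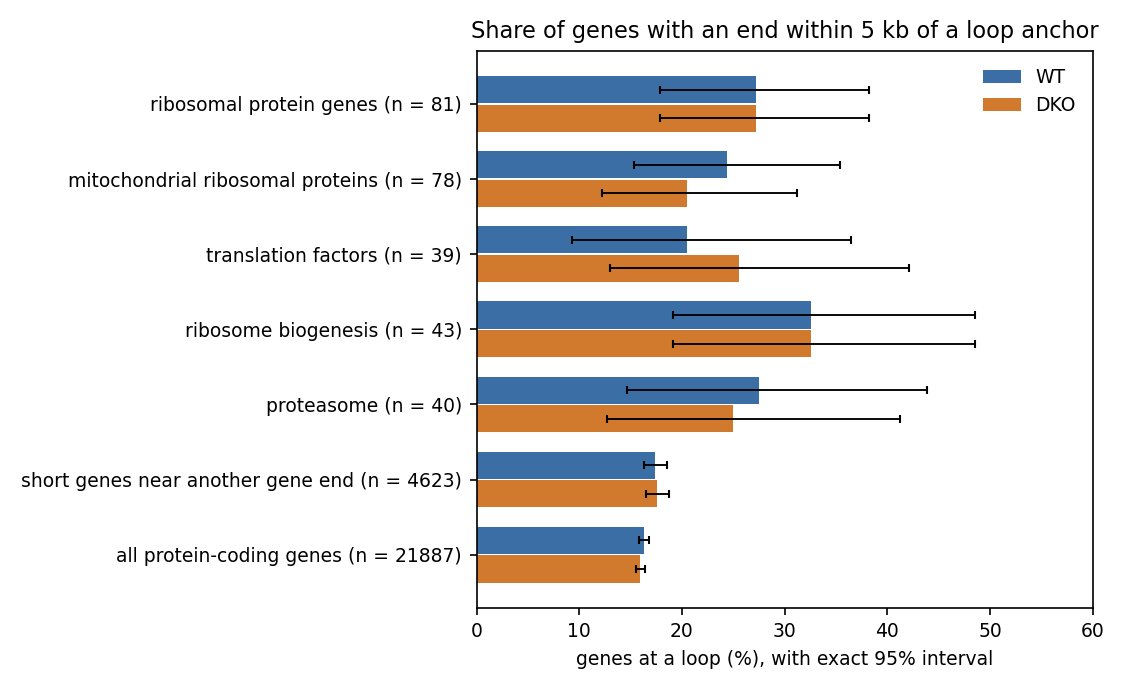
Share of genes (%, horizontal axis) with an end within 5 kb of a loop anchor, for ribosomal protein genes, 4 comparison lists, protein-coding genes up to 10 kb long that lie near another gene end, and all protein-coding genes. Bars are the WT and DKO libraries and lines exact 95% intervals; ribosomal protein genes stand at 27.2% in both libraries and all protein-coding genes at 16.3% and 15.9%.

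Other genes of the protein synthesis machinery had shares of the same order. Of 78 mitochondrial ribosomal protein genes, whose products build the separate ribosome of mitochondria, 19 were at WT loops (24.4%) and 16 at DKO loops (20.5%), with 2 loops at Mrps23 in each list. Of 39 translation factors 8 (20.5%) and 10 (25.6%) were at loops, among them Eef1g, Eif1a and Eif3d in both. Of 43 ribosome biogenesis genes 14 were at loops in each list (32.6%), among them Utp4, Nhp2 and Rrp15 in both. Of 40 genes with a proteasome symbol 11 (27.5%) and 10 (25%) were, among them Psma5, Psma7 and Psmb1 in both. The first count includes Psmc3ip, which shares the symbol but encodes no proteasome subunit. Of 14 genes often used as references for expression 4 were at WT loops, Polr2a, B2m and Gapdh among them, and 1, Polr2a, was at a DKO loop. The interval of each of these lists includes the share of ribosomal protein genes, and, apart from ribosome biogenesis genes in both lists, also the share of all protein-coding genes (16.3% in WT and 15.9% in DKO).

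The ribosomal protein genes were reached by 42 pixels in WT and 38 in DKO, which belong to 24 loops (15.4 to 35.7) and 23 loops (14.6 to 34.5). They make up 0.827% of WT loops and 0.871% of DKO loops. Loops counted as shared when the other list had a pixel no more than 2 bins away, at both anchors, from at least 1 of their pixels. That held for 13 of the 24 WT loops, 54.2% (32.8 to 74.4), beside 50.1% of all WT loops, and for 14 of the 23 DKO loops, 60.9% (38.5 to 80.3), beside 55.0%. Over loops at any protein-coding gene the shares were 53.3% and 57.7%, and these lie inside the intervals. Counting only loops with exactly the same pixel in the other list gave 33.3% (15.6 to 55.3) in WT and 39.1% (19.7 to 61.5) in DKO, beside 36.5% and 40.1% of all loops. Single pixels made up 13 of the WT loops (54.2%) and 13 of the DKO loops (56.5%), beside 58.4% and 63.5% of all loops. Of these single-pixel loops at ribosomal protein genes, 9 and 8 had no counterpart.

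Among large-subunit genes at shared loops, the strongest contact lay beside Rpl29, whose product sits at the surface of the large subunit. It joined chr9:106420001-106425000, 3889 bp from the nearer end of Rpl29, to chr9:106305001-106310000 overlapping Poc1a, a centriole gene, over 115 kb. WT had 41 contacts, 8.20 times expected (5.88 to 11.1), and DKO 48 contacts, 8.63 times expected (6.36 to 11.4). No protein-coding gene end lay within 5 kb of the partner bin, and no gene end other than that of Rpl29 within 5 kb of its own bin. Rpl29 also had a second WT loop over 50 kb in the other direction, to Parp3 and to Rrp9, which encodes a nucleolar protein that binds U3 small nucleolar RNA. It had 23 contacts at 4.29 times expected (2.72 to 6.44) and no counterpart in DKO.

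Rpl35 was joined to the receptor gene Nr6a1 and to Olfml2a by loops of 6 pixels in each list. The highest pixel had 36 contacts in WT, 6.20 times expected (4.34 to 8.58), over 70 kb. In DKO it lay 1 bin away, with 28 contacts at 5.29 times expected (3.51 to 7.64), over 65 kb. The Rpl35 anchor lay also within 5 kb of an end of Wdr38, so this contact cannot be assigned to 1 of these genes. Rpl19 was joined to Fbxl20, a ubiquitin ligase component, with 33 contacts in WT at 4.81 times expected (3.31 to 6.76) and 25 in DKO at 3.96 (2.56 to 5.85). The highest pixels spanned 50 kb in WT and 45 kb in DKO, and the same 2 pixels were in both lists. Rpl26, whose start lies in the anchor bin, was joined over 80 kb to ends of Pfas, a purine synthesis enzyme, and Rangrf. WT had 22 contacts, 4.40 times expected (2.76 to 6.66), in a loop of 5 pixels, and DKO had 19 at 3.76 (2.27 to 5.88) in a single pixel. The anchors at Rpl19 and Rpl26 lay also near ends of other genes, Cacnb1 (WT) and Stac2 (DKO) for Rpl19 and Rnf222 for Rpl26.

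Rpl37a was joined to Igfbp5, a binding protein of insulin-like growth factors. WT had 18 contacts, 5.57 times expected (3.30 to 8.81), over 135 kb, where the partner bin lay also near Igfbp2. DKO had 19 contacts, 6.08 times expected (3.66 to 9.50), over 145 kb. Rpl37a was the only gene with an end within 5 kb of its own anchor. Rpl24, mutated in the belly spot and tail mouse, shares its anchor with Zbtb11 and Gm6958 and reached Pcnp and Trmt10c, with 17 contacts in WT at 4.08 times expected (2.38 to 6.53) and 21 in DKO at 4.18 (2.59 to 6.40). Rpl13 was joined over 90 kb to Chmp1a and Dpep1 by the same pixel in both lists, with 19 contacts in WT at 4.01 times expected (2.42 to 6.27) and 18 in DKO at 4.54 (2.69 to 7.18). Its anchor lay 4757 bp from Rpl13 and also within 5 kb of an end of Cpne7. Rpl13a was joined to Rcn3 in both lists, with 28 contacts in WT at 2.31 times expected (1.54 to 3.34), the lowest ratio among these genes, and 15 in DKO at 3.59 (2.01 to 5.93). In WT it had a further loop of 16 contacts over 110 kb to Rras and Scaf1. The Rpl13a anchors lay also within 5 kb of an end of Flt3l in both lists.

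The stalk gene Rplp0, a common reference gene for expression, was at a shared loop with both bins overlapping the neighbouring gene Pxn, which encodes the adhesion protein paxillin. The pixel that reached Rplp0 had 23 contacts in each list, 3.69 times expected in WT (2.34 to 5.54) over 65 kb and 3.79 in DKO (2.40 to 5.68) over 45 kb. The highest pixels of that loop, with 29 contacts in WT and 42 in DKO, did not reach Rplp0.

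Among small-subunit genes, Rps14 had the highest ratios. Its shared loop ran over 60 kb from chr18:60765001-60770000 to chr18:60705001-60710000 overlapping Ndst1, a heparan sulfate enzyme gene, with 36 contacts in WT at 6.68 times expected (4.68 to 9.24) and 38 in DKO at 7.24 (5.13 to 9.94). The Rps14 anchor lay 4596 bp from the gene and within 5 kb of no other gene end. Each list held a further loop without a counterpart at Rps14. In WT it had 14 contacts over 195 kb at 5.45 times expected (2.98 to 9.15) and its partner bin overlapped Camk2a. In DKO it had 14 contacts over 75 kb at 4.15 times expected (2.27 to 6.96) and reached Tcof1, which encodes the nucleolar protein treacle, a factor of ribosomal RNA synthesis.

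Rps20, mutated in a dark skin mouse, was the only gene at its anchor and was joined to Mos, the oocyte kinase gene. WT had 17 contacts at 4.27 times expected (2.49 to 6.83) over 40 kb, and DKO 19 at 3.60 (2.17 to 5.63) over 35 kb. The DKO list held a further loop of Rps20 over 105 kb to Plag1, a growth-related transcription factor gene, and Chchd7, with 16 contacts at 5.79 times expected (3.31 to 9.40). Rps21 was at a loop in each list, but the loops were not the same. The WT loop spanned 35 kb to a bin overlapping Lama5, which encodes a laminin chain of the basement membrane. It had 21 contacts at 3.14 times expected (1.95 to 4.81). The DKO loop spanned 85 kb to a bin overlapping Adrm1 and within 5 kb of an end of Lama5. It had 15 contacts at 5.27 times expected (2.95 to 8.70). In each list the Rps21 anchor lay also within 5 kb of an end of Cables2.

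Of the 13 genes at loops in both lists, 12 had a shared loop in each, Rps21 being the exception. At those 12 the WT and DKO intervals overlapped at every gene, and the ratio of observed to expected contacts was higher in DKO at 8 and lower at 4.

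**Figure D2:**
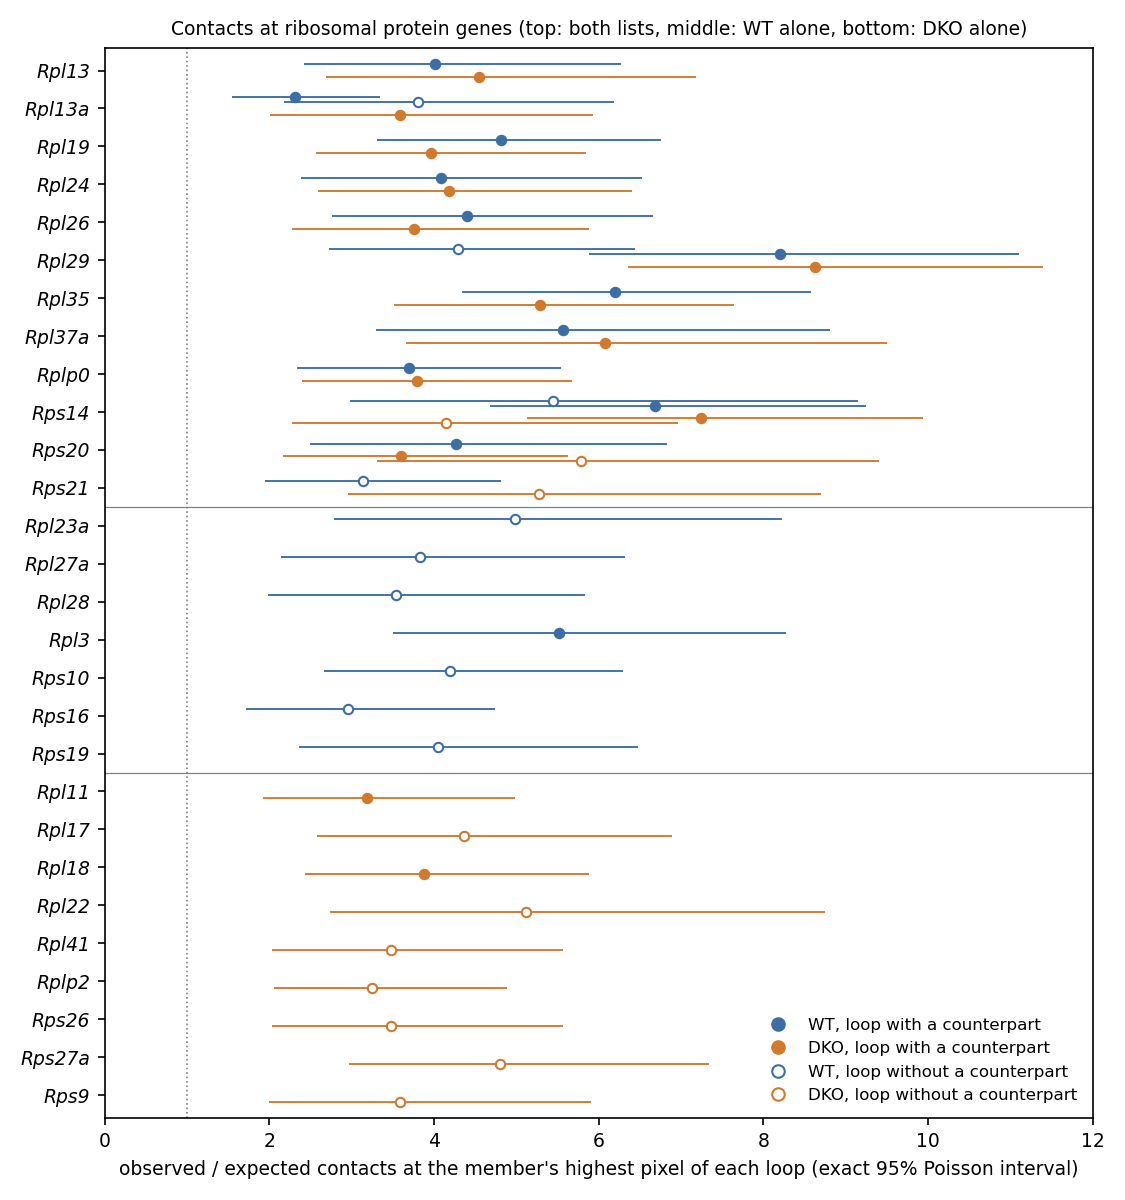
Observed over expected contacts (horizontal axis) at the highest pixel among the pixels of each loop that themselves reach a ribosomal protein gene, in WT and DKO, with exact 95% Poisson intervals; filled points are loops with a counterpart in the other list, open points loops without, and the dotted line marks a ratio of 1. Intervals of the 2 libraries overlap at each gene shown that has a shared loop in both, though the highest pixel can differ between the lists. In all, 3 genes are not drawn, and Rpl29 and Rps14 have the highest ratios.

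Exactly the same pixel was in both lists 13 times, at 6 genes (Rpl13, Rpl19, Rpl26, Rpl29, Rpl35 and Rps14). The median log2 ratio of DKO to WT enrichment was 0.04, with quartiles of −0.10 and 0.18, against −0.02 over all 1940 pixels in both lists, with quartiles of −0.25 and 0.20. Of the 13 pixels 9 had a ratio above 1 and 4 below. None was more than 1.5-fold higher in DKO, beside 3.56% of all such pixels, and 1 was more than 1.5-fold lower, beside 5.26%. That pixel lay at Rpl19 over 50 kb, with 33 contacts in WT and 21 in DKO and a ratio of 0.627 (0.345 to 1.12). The neighbouring Rpl19 pixel over 45 kb had 22 and 25 contacts and a ratio of 1.0 (0.542 to 1.86). The highest ratio was at a pixel of Rpl35 over 65 kb, 1.28 (0.711 to 2.33), while another pixel of the same loop, over 70 kb, stood at 0.751 (0.428 to 1.29). The interval included a ratio of 1 at each of the 13 pixels. Being called in both lists is a condition that leaves out pixels with large differences, so these values do not show that the libraries were alike.

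**Figure D3:**
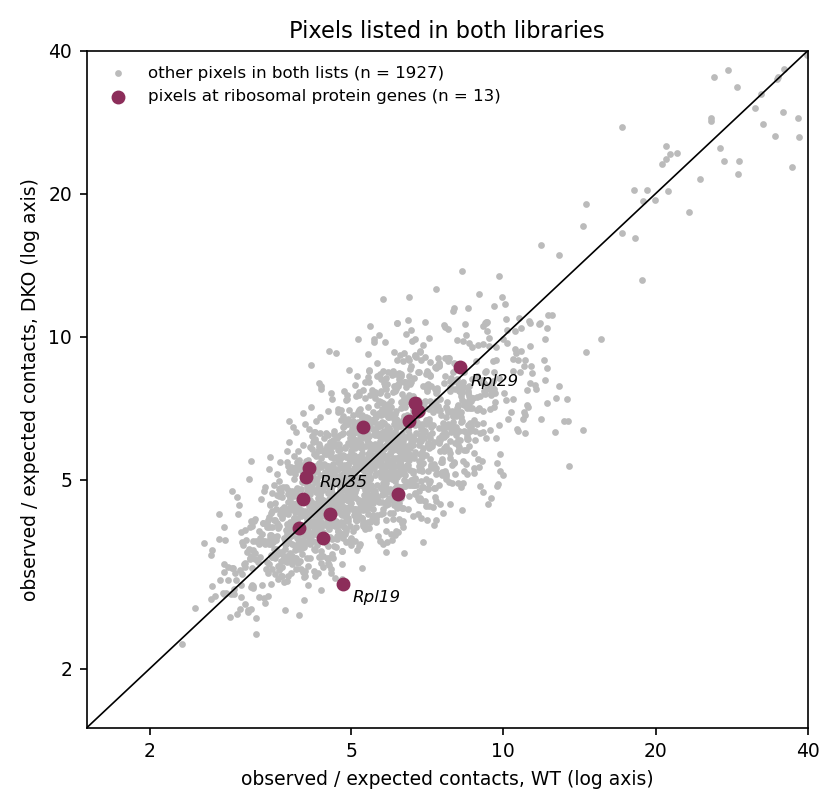
Observed over expected contacts in WT (horizontal, log axis) and DKO (vertical, log axis) at pixels in both lists, with pixels at ribosomal protein genes in purple, other pixels in grey and the line of equal values; 36 grey pixels lie beyond the axes. The 13 purple pixels lie on both sides of the line, with Rpl19 farthest below it.

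The 9 genes at loops of the WT list alone were 4 of the large subunit, Rpl3, Rpl23a, Rpl27a and Rpl28, and 5 of the small subunit, Rps10, Rps16 and Rps19 among them. Rpl3, which lies at the peptidyl transferase centre, had the highest ratio, 23 contacts at 5.52 times expected (3.50 to 8.28) over 135 kb to a bin overlapping Cbx7, a Polycomb gene. This loop was itself shared, and its DKO counterpart had 34 contacts at 8.26 times expected and ended 7781 bp from Rpl3, outside the 5 kb limit. Rpl23a reached Phf12 and Sez6 over 195 kb with 15 contacts (4.98, 2.79 to 8.22), and Rps10 reached Hmga1, a chromatin protein gene, and AI413582 over 60 kb with 23 (4.19, 2.66 to 6.29). Their anchors lay also within 5 kb of ends of Nek8 and Tlcd1 (Rpl23a) and of Nudt3 (Rps10).

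Rps19, mutated in another dark skin mouse and in Diamond-Blackfan anaemia, was joined over 90 kb to a bin overlapping Rabac1 with 17 contacts at 4.05 times expected (2.36 to 6.48). Rps16 reached the NOTCH ligand gene Dll3 and Selenov with 17 contacts (2.96, 1.72 to 4.74), and Rpl28 reached Brsk1 and Hspbp1 with 15 (3.54, 1.98 to 5.83). Both bins of the Rpl27a loop overlapped Denn2b, with 15 contacts (3.83, 2.14 to 6.32). Ends of other genes lay within 5 kb of the anchors at Rps19 (Dmrtc2) and Rpl27a (Denn2b and Trim66). Of the 10 loop entries at these 9 genes, 2 were at shared loops, 7 were single pixels and 2, at Rpl3 and Rps10, had all 4 FDRs under 0.01. Over all WT loops 58.4% were single pixels.

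The 9 genes at loops of the DKO list alone were 5 of the large subunit, Rpl11, Rpl17, Rpl18, Rpl22 and Rpl41, the stalk gene Rplp2, and Rps9, Rps26 and Rps27a of the small subunit. The only contact between ribosomal protein genes joined Rpl41 and Rps26 over 80 kb on chromosome 10, a single pixel with 17 contacts at 3.48 times expected (2.03 to 5.57). Its bins lay also within 5 kb of ends of Zc3h10 and Ikzf4, and its highest FDR was 0.0839. Rps27a, which encodes a fusion of ubiquitin and a ribosomal protein, was joined over 145 kb to the reticulon gene Rtn4 with 21 contacts at 4.8 times expected (2.97 to 7.34). Its anchor lay also within 5 kb of ends of Clhc1 and Mtif2. Rpl17 reached Lipg, an endothelial lipase gene, over 40 kb with 18 contacts (4.36, 2.58 to 6.89). These last 2 entries were the only ones of the 9 with all FDRs under 0.01.

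Rpl11, which binds and inhibits the p53 ligase Mdm2 when ribosome assembly fails, was reached by 1 pixel of a shared loop of 8 pixels, with 19 contacts at 3.19 times expected (1.92 to 4.98) over 105 kb. Rpl18 was likewise reached by 1 of 5 pixels of a shared loop, with 22 contacts at 3.88 times expected (2.43 to 5.88), towards Cyth2 and Kcnj14. The highest pixel of that DKO loop, which did not reach Rpl18, had 46 contacts at 8.70 times expected, and the WT list held a loop within 10 kb of Rpl18 with 41 contacts at 8.17 times expected. Rpl22 ended at a bin overlapping Kcnab2 with 13 contacts (5.12, 2.73 to 8.75). Rplp2 reached Gatd1 with 23 (3.25, 2.06 to 4.88), and Rps9 reached Cnot3, Leng1 and Tmc4 with 15 (3.58, 2.00 to 5.90). Anchors at Rpl17, Rpl18, Rpl22, Rplp2 and Rps9 lay also within 5 kb of ends of other genes. Those contacts cannot be assigned to 1 gene. A gene missing from a list had no called pixel there, which does not show that contacts were lacking.

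The limit of 5 kb decided several of these entries. In WT the members just inside the limit included Rps21 at 2379 bp from its nearest anchor bin, and the nearest outside were Rpl6 at 5760 bp and Rpl5 at 5996 bp. In DKO those inside were Rplp0 at 4467 bp and Rpl13 at 4757 bp, and those outside included Rpl3 at 7781 bp. Within 10 kb, 29 members were at WT loops, 35.8% (25.4 to 47.2), beside 21.2% of all protein-coding genes. At DKO loops there were 25, 30.9% (21.1 to 42.1), beside 20.1%. An end lay inside the anchor bin itself for 15 members in WT and 16 in DKO, and 7 members then remained in both lists.

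The median span of loops at ribosomal protein genes was below that of loops as a whole and equal to that of similarly placed genes. The median span was 85.0 kb in WT (quartiles 53.8 and 115) and 75 kb in DKO (quartiles 45.0 and 97.5), against 115 and 100 kb over all loops and 105 and 95 kb over loops at any protein-coding gene. Over loops at short genes near another gene end the medians were the same, 85.0 and 75 kb. With 24 and 23 loops, equal medians do not show equal spans, and no difference in span was tested. The longest loops at ribosomal protein genes were 195 kb in WT, at Rps14 and Rpl23a, and 180 kb in DKO. None of the 24 WT loops and none of the 23 DKO loops spanned 200 kb or more, which allows shares of up to 12.5% and 13% by the limit of 3 loops, and up to 14.2% and 14.8% by the exact interval. Over all loops the shares were 27.3% and 22.7%, over loops at any protein-coding gene 22.2% and 18.8%, and over loops at short genes near another gene end 14.2% and 11.2%, so the counts of 0 do not set these genes apart from the last group. At mitochondrial ribosomal protein genes 6 of 20 WT loops and 4 of 16 DKO loops spanned 200 kb or more, and at translation factors 0 of 8 and 1 of 11. With gene ends within 10 kb, 2 WT loops of 200 kb or more were reached, at Rpl34 (525 kb) and Rpl5 (250 kb). Median enrichment was 4.28 in WT and 4.36 in DKO, against 5.39 and 5.12 over all loops and 4.68 and 4.49 over loops at short genes near another gene end.

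**Figure D4:**
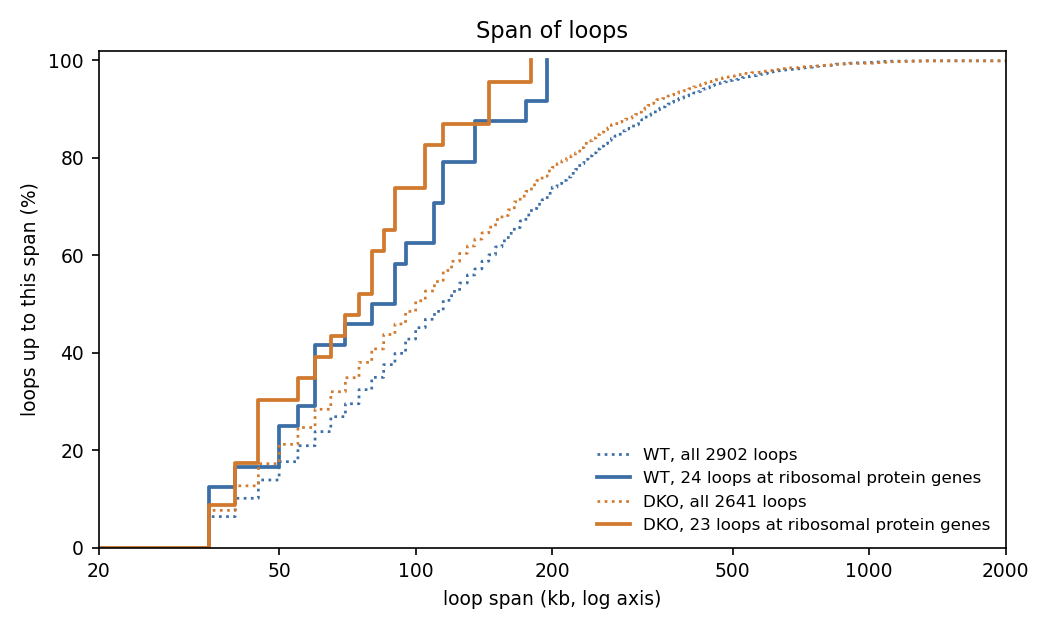
Share of loops (%, vertical axis) up to a given span (kb, horizontal log axis) for all loops (dotted) and loops at ribosomal protein genes (solid) in WT and DKO. The solid lines reach 100% at 195 kb in WT and 180 kb in DKO, and the dotted lines continue beyond 200 kb.

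Partners were mostly other genes, as they were over all protein-coding genes at loops. Counting each gene with each of its loops, the opposite bin lay within 5 kb of a protein-coding gene end in 19 of 26 entries in WT (73.1%) and 18 of 24 in DKO (75%), against 55.6% and 59.9% over all protein-coding genes at loops. The bin on the side of the ribosomal protein gene lay within 5 kb of an end of another gene in 18 of 26 (69.2%) and 17 of 24 (70.8%), against 51.1% and 53.0%. In those entries the contact belongs to the bin and cannot be assigned to the ribosomal protein gene. Neither pair of shares has an interval or a value for short genes near another gene end. Whether they set the ribosomal protein genes apart was not tested. The partners were 52 genes, 34 in WT and 30 in DKO with 12 in both. Where the strand was known, loops left the gene on its downstream side in 11 of 15 entries in WT, 73.3% (44.9 to 92.2), beside 51.0% over all protein-coding genes at loops, and in 10 of 16 in DKO, 62.5% (35.4 to 84.8), beside 50.6%. Both intervals include the background. Of the partners, 4 entries named genes of ribosomes or their assembly: Rrp9 for Rpl29 in WT, Tcof1 for Rps14 in DKO, and Rpl41 and Rps26 for each other.

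**Figure D5:**
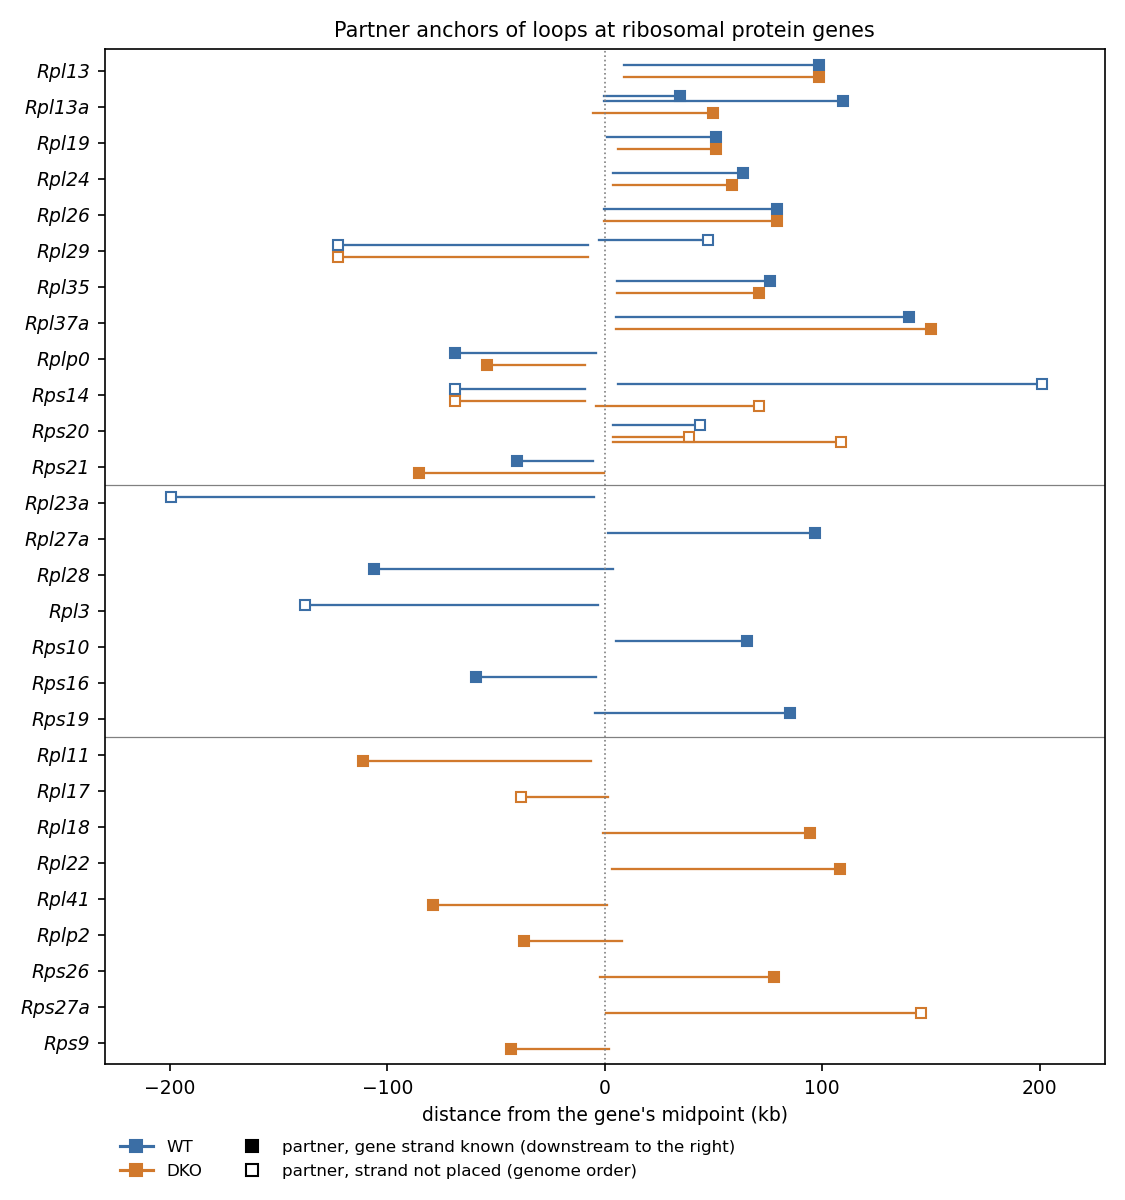
Distance in kb (horizontal axis) from the midpoint of each ribosomal protein gene to the anchors of its loops in WT and DKO; lines join the anchor at the gene to the partner anchor (square), with downstream to the right where the strand is known (filled) and genome order otherwise (open). Partner anchors lie up to 195 kb from the anchor at the gene in WT and up to 145 kb in DKO, over the genes drawn, which leave out 3.

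By chromosome, the 14 members on chromosome 7 had 8 WT and 5 DKO loops, and the 5 on chromosome 4 had 1 and 4. The 7 on chromosome 17 had 1 and 0, and the 7 on chromosome 11 had 3 and 3. Shares over all genes of each chromosome were not computed, so these counts do not set a chromosome apart.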

How the data were processed

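The authors deposited 1 list of enriched pixels per library, written by juicer_tools 1.22.01 per the file headers. Per the submitters' processing notes, contacts were processed with Juicer on GRCm38 (mm10). No aligner, read filter or treatment of reads from repeats, ribosomal protein pseudogenes included, is given in the sources used here. Observed values, as deposited by the authors, are raw contact counts per pair of 5 kb bins. The deposited expected values are a signal on the same scale from 4 neighbourhoods. A deposited score, by its column name the class of expected counts, was not used. The deposited q-values, 1 FDR per neighbourhood, were all under 0.1.

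Pixels were joined by single linkage at 20 kb at both anchors, and each loop took the position of the pixel with most contacts. Enrichment is the observed count over the donut expected count. A member's value is that of its highest pixel in each loop. Gene ends, promoters and strands came from RefSeq GRCm38.p6, and 20 members without a promoter entry have no strand here. Intervals are exact 95% intervals, Poisson for counts, Clopper-Pearson for shares and conditional binomial for ratios, with expected counts taken as fixed. Members are not independent, since neighbours share loops.

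Every ribosomal protein gene at a loop, its partners, the extreme shared pixels, Rplp0, Rpsa, Rps6 and Rpl10 were to be named, with up to 3 genes per comparison list by loop number. Members and lists were chosen with earlier results of these data known. Checked on simulated data with anchors planted on the bin of the gene start, the code recovered 200 of 200 planted gene and library pairs. That check did not cover anchors near the 5 kb limit. Results for 3 members and 1 partner gene are not reported here by name and remain in the counts. Other members without a loop were named after their values were seen. Python 3.11.15, pandas 2.3.3 and scipy 1.17.1 were used.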

Additional observations from a re-analysis of the deposited data

How the results depend on the processing

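No paired analysis was possible because WT and DKO are single libraries, which also leaves no replicate to omit. Recomputing gave 163 values: 143 near the original (inside its interval, or within 1.5-fold for a count) and 20 that moved. Some settings cannot change some values, as linkage, matching and the expected count cannot change which genes are at loops. The 143 are thus no measure of stability. Members at loops in WT, DKO and both numbered 10, 9 and 5 at an FDR under 0.01, with 11 WT and 9 DKO loops. With at least 20 contacts they numbered 11, 9 and 5, with 11 and 9 loops. Without 1-pixel loops whose FDRs sum to over 0.02 they numbered 12, 12 and 6, with 13 and 12 loops. These 3 settings remove pixels from both lists. The share of members at a loop in either list fell from 38.3% to 17.3%, 18.5% and 22.2%. That of all protein-coding genes fell from 22.8% to 11.1%, 10.9% and 14.1%. With gene ends inside the anchor bin 7 members were in both lists. With the bottom-left expected count the median log2 ratio was 0.18; the cause was not tested. The share of background genes at a loop in either list was 18.2% for genes up to 10 kb long, 28.1% for those near another gene end and, added after seeing the data, 25% for those with both. Depth limits the single genes: most loops rest on 12 to 25 contacts.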
